A study of Homo sapiens with 4 samples.

Results

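The genes of MHC class I and class II antigen presentation were examined in the rituximab-resistant sublines Jeko-1/R and Raji/R and in their parents Jeko-1 and Raji, 2 human lymphoma lines of B-cell origin. The set was a list of 33 genes chosen by name, with 14 genes of the class I route, 14 of the class II route and 5 regulators of both. A value was obtained for 32 of them among 19775 genes on the array, while IFI30, a lysosomal reductase of the class II route, was not analysed here. Jeko-1/R is the rituximab-resistant subline of Jeko-1, a mantle cell lymphoma line, and Raji/R is the resistant subline of Raji, a Burkitt lymphoma line. The labels describe both sublines as rituximab-treated and both parents as untreated; the dose, the duration and whether a subline is 1 clone were not given in the sources used here. Each line was measured on 1 oligonucleotide array, so no group had a replicate, and no p-value can be given within a line.

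Class I molecules show peptides from the cytosol to CD8+ T cells and restrain NK cells. Proteasomes, with interferon-inducible subunits such as PSMB8 and PSMB9, cut proteins into peptides, the TAP1-TAP2 transporter carries these into the endoplasmic reticulum, ERAP1 and ERAP2 trim them, and TAPBP, CALR and PDIA3 help to load them onto a heavy chain paired with beta-2-microglobulin (B2M). Class II molecules, which B cells carry at all times, show peptides from endocytosed proteins to CD4+ T cells: CD74 blocks the groove until CTSS and LGMN act in endosomes, HLA-DM then exchanges the remaining fragment for peptide, and HLA-DO restrains HLA-DM. CIITA switches on class II genes through the RFX complex (RFX5, RFXAP, RFXANK), which sits on the X box of their promoters next to factors on the Y box, and NLRC5 has the corresponding role for class I genes.

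Promoters of some HLA-D genes and of HLA-B, B2M and TAP1 are given below as background. Whether these stretches bear on any ratio that follows was not tested. RefSeq start sites of assembly GRCh38.p14 were available for 26 of the 33 genes, in windows of 250 bases before to 50 after the start. Each line gives the 160 bases just before the start, 5′ to 3′ along the gene's strand. For a gene with several windows, the window with the most matches to the letters searched is the one printed. Capitals mark matches, on either strand, to the X1 box core CTAGNNAC, to the Y box GATTGG, or to the interferon-stimulated response element, searched as TTTC, 2 free bases, TT, 1 free base and C.
HLA-DRB1 (chr6:32589849-32590008, minus strand): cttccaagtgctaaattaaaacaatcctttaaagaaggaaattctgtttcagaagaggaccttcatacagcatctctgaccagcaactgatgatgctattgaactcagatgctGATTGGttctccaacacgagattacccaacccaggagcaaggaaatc
HLA-DQA1 (chr6:32637246-32637405, plus strand): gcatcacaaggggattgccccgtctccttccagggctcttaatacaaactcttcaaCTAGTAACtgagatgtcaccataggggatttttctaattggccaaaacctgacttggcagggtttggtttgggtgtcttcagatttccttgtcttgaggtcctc
HLA-DMB (chr6:32941029-32941188, minus strand): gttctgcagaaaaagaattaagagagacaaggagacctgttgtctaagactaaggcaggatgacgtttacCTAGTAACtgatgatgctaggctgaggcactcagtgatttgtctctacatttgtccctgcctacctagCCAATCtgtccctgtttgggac
HLA-DMA (chr6:32953098-32953257, minus strand): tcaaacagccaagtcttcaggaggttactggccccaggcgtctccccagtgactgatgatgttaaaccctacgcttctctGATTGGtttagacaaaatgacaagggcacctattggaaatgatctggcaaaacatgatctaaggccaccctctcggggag
HLA-DOB (chr6:32817003-32817162, minus strand): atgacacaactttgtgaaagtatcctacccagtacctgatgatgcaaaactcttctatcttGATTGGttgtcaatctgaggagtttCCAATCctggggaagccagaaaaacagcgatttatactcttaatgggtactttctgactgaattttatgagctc
HLA-B (chr6:31357180-31357339, minus strand): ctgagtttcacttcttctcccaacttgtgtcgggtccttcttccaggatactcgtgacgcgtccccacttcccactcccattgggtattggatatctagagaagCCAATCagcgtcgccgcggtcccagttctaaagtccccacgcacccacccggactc
B2M (chr15:44711357-44711516, plus strand): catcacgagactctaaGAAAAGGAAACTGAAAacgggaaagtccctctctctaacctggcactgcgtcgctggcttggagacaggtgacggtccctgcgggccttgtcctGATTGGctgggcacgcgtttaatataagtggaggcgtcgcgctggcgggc
TAP1 (chr6:32853705-32853864, minus strand): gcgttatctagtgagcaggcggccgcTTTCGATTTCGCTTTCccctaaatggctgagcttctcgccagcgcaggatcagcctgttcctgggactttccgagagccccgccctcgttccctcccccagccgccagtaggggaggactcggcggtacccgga
Genes were counted over all their windows, 35 for the 26 genes. Y box letters were found for 7 of the 9 HLA-D genes with a promoter, against 15.1% of all 35116 promoters in the table, or 17.9% of its 27305 genes counted over all their promoters. The X1 core letters, found in 7.82% of all promoters and for 9.51% of all genes, were found for 2 of the 9, HLA-DQA1 and HLA-DMB. The interferon element, found in 8.03% of all promoters and for 9.78% of all genes, was found for 8 of 12 class I genes and 0 of 11 class II genes. In B2M and TAP1 the capitals of the interferon element cover 2 matches that overlap each other. A match is a description of letters in a window, and its absence says nothing about a factor's binding.

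Levels are given as array signals, the linear form of the deposited log2 values, and each gene is represented by its brightest probe set. Signals of different genes come from different probes and are not compared with each other. A floor was set at a signal of 77.5, the median of all values, and lower values were raised to it before a ratio was taken. Within a line, 2-fold served as the size that counted as changed. The SD of log2 ratios between different probe sets of the same gene was 0.27 for Jeko-1/R over Jeko-1, from 5850 genes, and 0.56 for Raji/R over Raji, from 6850 genes. It stands in for error without covering differences between cultures.

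All arrays held B-cell RNA: the 7 B-cell markers with a value were above the floor on all 4 arrays, and the mantle cell genes CCND1 and SOX11 were above it in Jeko-1/R and Jeko-1 and below it in Raji/R and Raji. CD5, the other mantle cell marker listed, was below the floor in Jeko-1/R (51.5), Jeko-1 (21.0) and Raji (47.4) and above it in Raji/R (121). Markers of other antigen-presenting cells were dim, since the 11 myeloid and dendritic markers with a value summed to a signal of 282 in Jeko-1/R and 304 in Jeko-1, and to 1308 in Raji/R and 1046 in Raji. None stood at exactly 0; the monocyte marker CD14 was below the floor on all 4 arrays and ITGAM was the brightest, at 279 in Raji/R and 314 in Raji. The number at or above the floor was 1 in Jeko-1/R and 0 in Jeko-1, and 6 in Raji/R and 4 in Raji. T-cell markers at or above the floor numbered 2 of 8 in Jeko-1/R and 1 in Jeko-1, and 3 in Raji/R and 2 in Raji, and on each array LCK, which some B-cell tumours also express, was the brightest. NK-cell markers numbered 1 of 7 in each Jeko-1 line, 4 in Raji/R and 3 in Raji, and epithelial and stromal markers numbered 5 of 8 on each array. Some of these were far above the floor in the Raji lines. NKG7, an NK-cell marker, had 1749 in Raji/R and 883 in Raji, and the stromal marker COL1A1 had 1465 in Raji/R and 1916 in Raji. VIM was the brightest epithelial and stromal marker on each array. The Raji/R array differed in its overall distribution, with 55.6% of its probe sets at or above the floor, against 48.3% in Raji, and its brightest 55 probe sets lay above a signal of 108709, against 76514 in Raji. The same cut was 34168 in Jeko-1/R and 36029 in Jeko-1, and the part of these differences between arrays in the results below was not tested.

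In Jeko-1/R, antigen presentation genes differed little from Jeko-1. In bulk RNA, fewer cells that express a gene and less of its RNA per cell cannot be told apart. No member with a ratio reached 2-fold in either direction. Among all 11588 genes, 0.38% were higher in Jeko-1/R by 2-fold or more and 0.595% were lower by as much. The 31 log2 ratios ran between -0.61 and 0.54, and 26 of them lay within the SD between probe sets. Of all 11588 genes, 8441 lay within it. Above 0 were 11 of 14 class I genes (median log2 ratio 0.07), 8 of 12 class II genes (median 0.03) and 5 of 5 regulators (median 0.19), beside a median of 0.00 over all genes and 50.2% above 0.

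LGMN, the asparaginyl endopeptidase that cleaves CD74 and antigens in endosomes, had the lowest ratio in Jeko-1/R, with a signal of 2767 in Jeko-1/R and 4235 in Jeko-1. That is 1.53-fold lower, from its only probe set. The highest belonged to TAP2, a chain of the peptide transporter, at 985 in Jeko-1/R and 678 in Jeko-1, a 1.45-fold difference; another TAP2 probe set above the floor gave a log2 ratio of 0.34. NLRC5 had a signal of 3641 in Jeko-1/R and 2801 in Jeko-1 (log2 ratio 0.38), and RFX5, the DNA-binding subunit of the RFX complex, 6277 and 4923 (0.35, and 0.42 from its other probe set). HLA-F, a nonclassical class I heavy chain, stood at 4656 in Jeko-1/R and 3864 in Jeko-1, a log2 ratio of 0.27 that was the remaining one beyond the SD between probe sets.

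The molecules that carry peptides to the surface had signals close to those of the parent in this pair. HLA-DRA, the common chain of HLA-DR, had a signal of 25443 in Jeko-1/R and 24972 in Jeko-1. HLA-DRB1, its partner chain, stood at 12321 in Jeko-1/R and 12337 in Jeko-1. HLA-B, a classical class I heavy chain, stood at 21505 in Jeko-1/R and 20563 in Jeko-1, and B2M at 33695 in Jeko-1/R and 36926 in Jeko-1. Among these 4, B2M had the log2 ratio furthest from 0, at -0.13. Log2 ratios of the 9 HLA-D genes with a value ran between -0.06 and 0.18 by their brightest probe sets. A much dimmer HLA-DPB1 probe set gave 0.62, with 305 in Jeko-1/R and 199 in Jeko-1. Averaging all probe sets, some of them below the floor, gave 0.72 for HLA-DQB1.

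**Figure D1:**
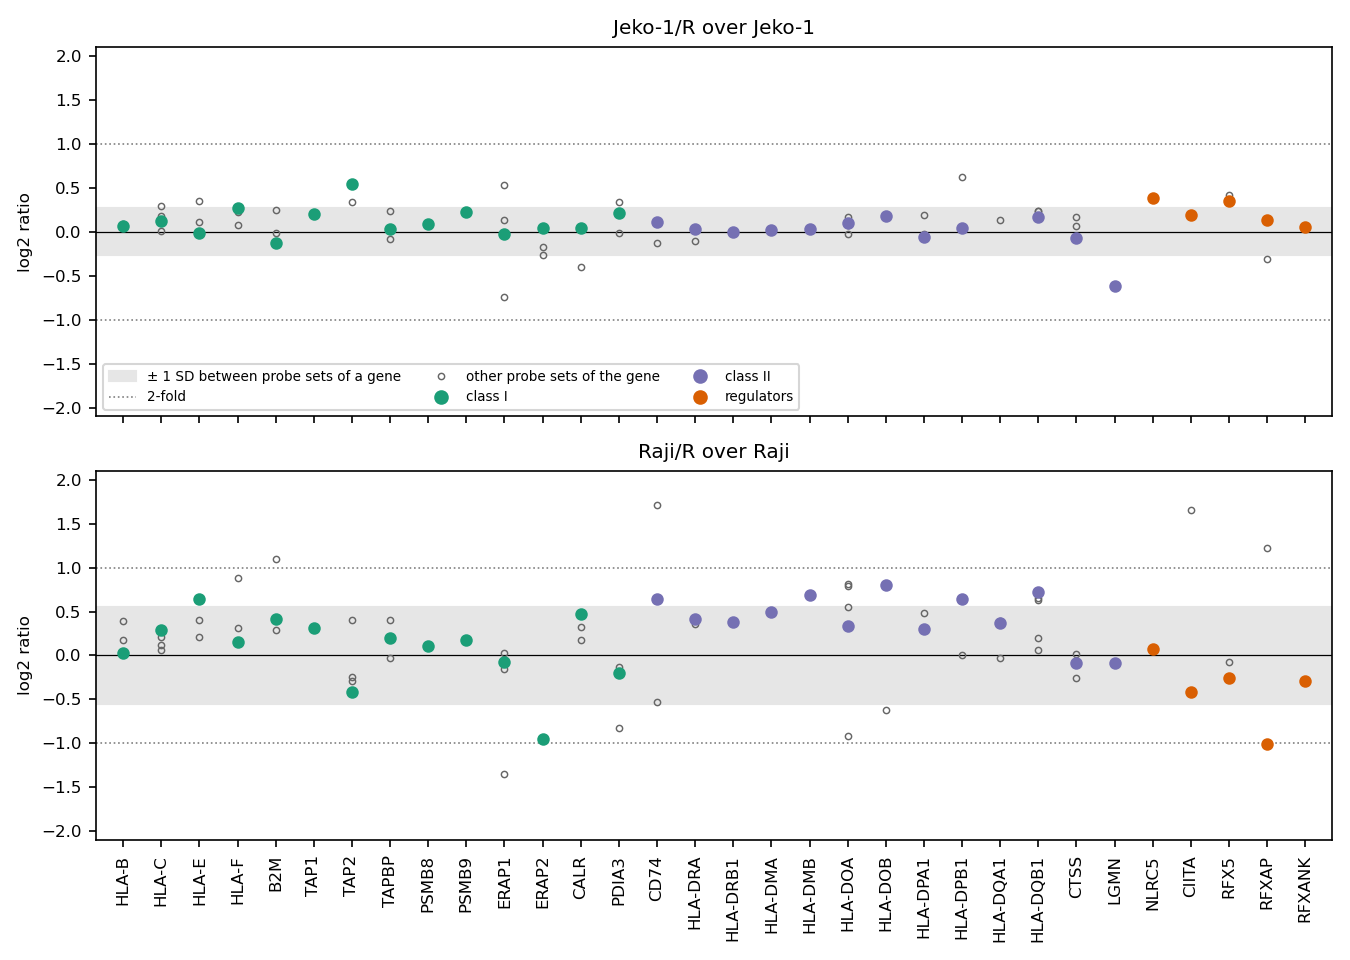
Log2 ratio of resistant over parental signal for each gene (vertical axis), with the Jeko-1 pair above the Raji pair and genes coloured by class. Open points are other probe sets of the same gene, the grey band is 1 SD between probe sets either side of 0 and dotted lines mark 2-fold; in the Jeko-1 pair no gene value reaches them, and in the Raji pair only RFXAP lies past them, at -1.004, while ERAP2 is drawn at its bound.

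In Raji/R, class II genes were the group with the highest median ratio. All 10 HLA-D genes and CD74 had higher signals in Raji/R than in Raji, with log2 ratios between 0.30 and 0.80 and a median of 0.50, while the median over all genes was 0.08 and 56.1% of all genes had a ratio above 0. None of these 11 reached 2-fold. In this pair 8 of 13 class II genes, and 24 of all 32 members, had a ratio within the SD between probe sets. Of all 14642 genes, 10075 lay within it. With quantile normalization, which gives all arrays the same distribution, the class II median was 0.26 against 0.41 as deposited, HLA-DPA1 stood at -0.04 and HLA-DRA at 0.00. Among all 32 members, 0 were higher and 1 was lower in Raji/R by 2-fold or more, beside 7.01% and 2.64% of 14642 genes.

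CD74, the invariant chain, had a signal of 35426 in Raji/R and 22651 in Raji, a 1.56-fold difference. Its other, much dimmer probe sets disagreed with each other and gave log2 ratios of -0.53 and, with Raji below the floor, at least 1.71. The peptide exchanger HLA-DM was higher in both chains: HLA-DMB stood at 19987 in Raji/R and 12400 in Raji (log2 ratio 0.69), and HLA-DMA at 15305 in Raji/R and 10853 in Raji (0.50). HLA-DOB, a chain of the HLA-DM inhibitor HLA-DO, had the largest class II ratio, with 2093 in Raji/R and 1203 in Raji, a 1.74-fold difference. Its other probe set, below the floor in Raji/R, gave -0.62. HLA-DOA, the partner chain, stood at 5581 in Raji/R and 4434 in Raji (log2 ratio 0.33). For HLA-DO, then, the brighter probe sets of both chains gave a higher signal in Raji/R, and dimmer ones did so in part.

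The chains that present peptide had ratios over a similar range in Raji/R. HLA-DPB1 stood at 77752 in Raji/R and 49626 in Raji, and HLA-DPA1 at 59105 in Raji/R and 47847 in Raji, log2 ratios of 0.65 and 0.30. HLA-DRA stood at 74313 in Raji/R and 55852 in Raji, and HLA-DRB1 at 62901 in Raji/R and 48352 in Raji, ratios of 0.41 and 0.38. HLA-DQB1 stood at 14012 in Raji/R and 8489 in Raji, and HLA-DQA1 at 25727 in Raji/R and 19941 in Raji, ratios of 0.72 and 0.37. In each of HLA-DP, HLA-DR and HLA-DQ both chains were thus higher in Raji/R with the deposited scaling, and under quantile normalization HLA-DPA1 and HLA-DRA were not. Beside these gene values, 15 of 20 other class II probe sets above the floor were higher in Raji/R, with a median of 0.34. The endosomal proteases did not share this: CTSS, the main protease of the invariant chain in B cells, had 2320 in Raji/R and 2459 in Raji, and LGMN had 4551 in Raji/R and 4840 in Raji, log2 ratios of -0.08 and -0.09.

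Class I genes in Raji/R were above 0 in 10 of 14 cases, with a median log2 ratio of 0.17, beside 56.1% of all genes and their median of 0.08. With quantile normalization 7 of 14 were above 0 and the median was 0.034, with HLA-B at -0.18, HLA-C at -0.016 and B2M at -0.082. HLA-E, the nonclassical heavy chain read by NK-cell receptors, had the largest, with 25421 in Raji/R and 16247 in Raji (1.56-fold), and its other probe sets gave 0.21 and 0.41. B2M stood at 97646 in Raji/R and 73167 in Raji (log2 ratio 0.42), and the chaperone CALR at 7317 in Raji/R and 5290 in Raji (0.47). HLA-B, at 42442 in Raji/R and 41712 in Raji, differed by 0.03 by its brightest probe set, while its other probe sets gave 0.18 and 0.39. The classical heavy chain HLA-C stood at 50466 in Raji/R and 41158 in Raji (0.29).

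The peptide supply genes of class I had ratios of both signs in Raji/R. TAP1 had 9313 in Raji/R and 7479 in Raji, whereas TAP2 had 3542 in Raji/R and 4714 in Raji, log2 ratios of 0.32 and -0.41, and TAP2 probe sets ran between -0.41 and 0.40. The immunoproteasome subunits PSMB8 and PSMB9 had ratios of 0.11 and 0.18, and tapasin (TAPBP) 0.19. ERAP2, a trimming peptidase, was below the floor in Raji/R, with a measured signal of 68.6 against 149 in Raji, so it was at least 1.93-fold lower. ERAP1, its partner, stood at 5654 in Raji/R and 5936 in Raji, and PDIA3, a loading chaperone, at 14523 in Raji/R and 16659 in Raji. Another ERAP1 probe set had 70.7, below the floor, in Raji/R and 197 in Raji, a log2 ratio of -1.35 or lower. The remaining ones above the floor gave 0.03 and, also with Raji/R below the floor, -0.15 or lower. Other PDIA3 probe sets gave -0.83 and -0.14.

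Among the regulators in Raji/R, 4 of 5 were below 0 and the median log2 ratio was -0.29. By brightest probe sets, RFXAP, the RFX-associated protein, was the only member past 2-fold. It had 696 in Raji/R and 1395 in Raji, a 2.01-fold lower signal. Its dimmer probe set went the other way, with 181 in Raji/R and 21.3, below the floor, in Raji. CIITA likewise gave 1110 in Raji/R and 1478 in Raji from its brighter probe set (log2 ratio -0.41), and 243 in Raji/R and 77.3, below the floor, in Raji from another (at least 1.65). The direction for RFXAP and CIITA in Raji/R therefore depends on the probe set. RFX5 stood at 4841 in Raji/R and 5794 in Raji (-0.26), RFXANK at 2054 in Raji/R and 2504 in Raji (-0.29), and NLRC5 at 1045 in Raji/R and 992 in Raji (0.08). The regulators' median was 0.08 when all probe sets of a gene were averaged.

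**Figure D2:**
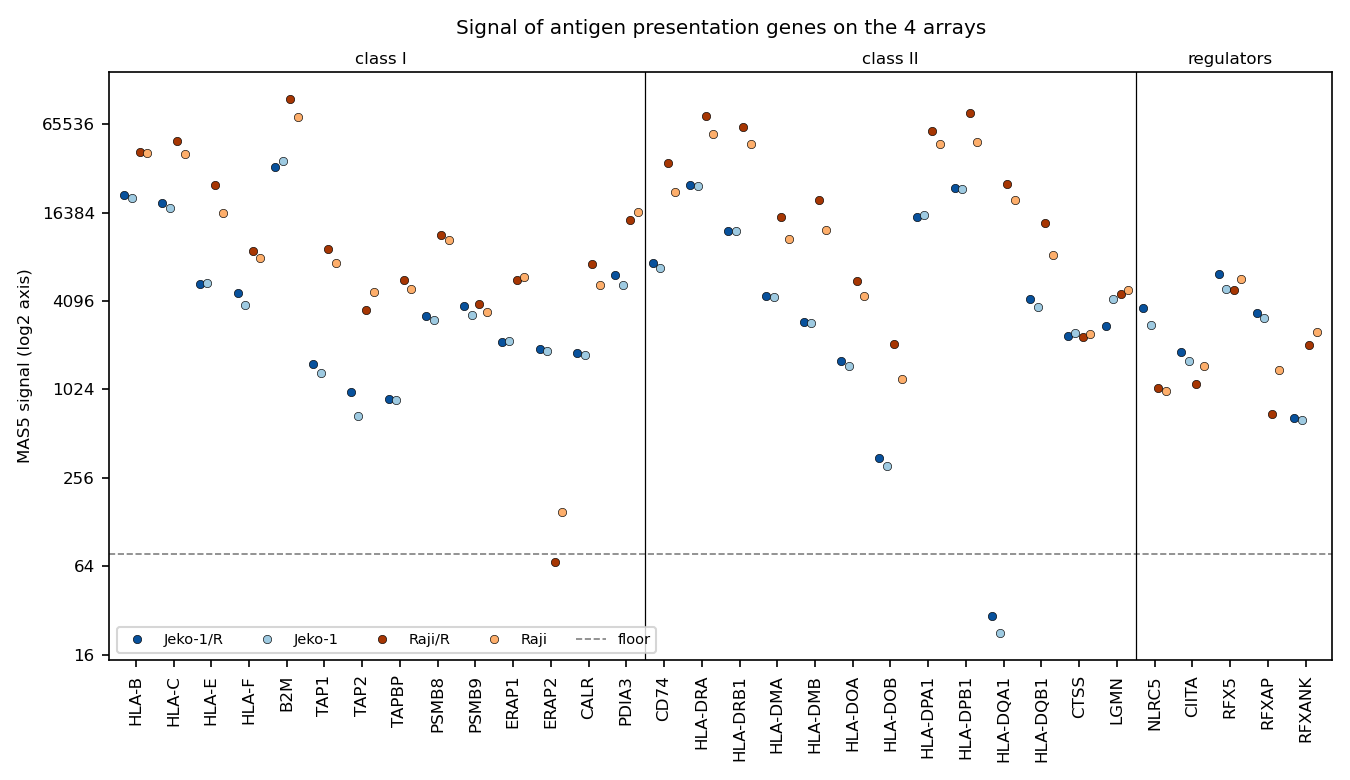
Signal of every gene in Jeko-1/R, Jeko-1, Raji/R and Raji (log axis, 1 point per array, genes ordered by class, floor of 77.5 as a line). HLA-DQA1 lies below the floor in both Jeko-1 lines and ERAP2 below it in Raji/R; points are comparable within a gene and not between genes.

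By their brightest probe sets the regulators, except NLRC5, had opposite signs in the pairs, each within the SD between probe sets in at least 1 pair. Another CIITA probe set was above 0 in both, by at least 0.19 in Jeko-1/R and at least 1.65 in Raji/R. The dimmer RFXAP probe set had the reverse signs, with -0.31 in Jeko-1/R and at least 1.22 in Raji/R. Of 31 genes with a ratio in both pairs, 17 were above 0 in both, 3 were below 0 in both and 11 had opposite signs, of which 7 were higher in Jeko-1/R and lower in Raji/R. These 7 were TAP2, ERAP2, PDIA3, CIITA, RFX5, RFXAP and RFXANK, and the other 4 were HLA-E, B2M, HLA-DRB1 and HLA-DPA1. None of these 11 lay beyond the SD between probe sets in both pairs. The same counts over all genes were not made, so the 11 of 31 have no share to stand beside. With 1 array per group, the difference between the pairs could not be tested.

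A model over both pairs asked whether resistance had a common effect. In limma, with cell line and resistance as terms and Benjamini-Hochberg adjustment over 15575 genes, 0 of 32 members passed an adjusted p of 0.05 for resistant over parental, and 0 had an unadjusted p under 0.05. Over all genes the share called was 0% higher and 0% lower, 324 genes had an unadjusted p under 0.05, and the lowest adjusted p was 0.974. Among the positive estimates of the members HLA-DOB had the largest, a log2 difference of 0.49 ± 0.27 (SE), higher in 2 of 2 sublines, and the next was HLA-DQB1, with 0.45 ± 0.26, also higher in 2 of 2. The lowest estimates were those of ERAP2, at -0.45, and RFXAP, at -0.44, each lower in 1 of 2 sublines. With other choices of probe set the estimate was -0.31 for HLA-DOB, 0.020 for ERAP2 and 0.47 for RFXAP. The fit has 1 residual degree of freedom among samples, and a p that misses the threshold does not show that the lines were alike.

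The largest differences among the members lay between the lines. Jeko-1/R and Jeko-1 had lower signals than Raji/R and Raji for most genes of both routes, and higher ones for NLRC5, RFXAP and ERAP2. Between the sublines, 3 of 32 members were higher and 22 lower by 2-fold or more in Jeko-1/R than in Raji/R, beside 22.2% and 31.2% of 14823 genes. Between the parents, 3 were higher and 23 lower by that size in Jeko-1 than in Raji, beside 22.4% and 26.4% of 13538 genes. In the limma fit 3 members were called higher and 24 lower in the Jeko-1 lines at an adjusted p of 0.05, beside 23.3% and 30.1% of 15575 genes. After quantile normalization or lowess adjustment it called 3 higher and 18 lower, and without a floor it called 0 higher and 0 lower, with 25 members at an unadjusted p under 0.05. The calls as deposited comprise 1 higher and 12 lower of 14 class I genes, 0 higher and 11 lower of 13 class II genes, and 2 higher and 1 lower of 5 regulators. A parent and its subline are not independent cultures, so this p measures a spread that may be technical.

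Class II genes had a median log2 ratio of -1.81 between the sublines and -1.58 between the parents, against -0.41 and -0.27 over all genes. Lowess adjustment gave class II medians of -1.25 and -0.80. Of the class II genes with a level above the floor in all lines, HLA-DMB was the furthest apart: given above for Raji/R and Raji, it stood at 2956 in Jeko-1/R and 2895 in Jeko-1, which is 6.76-fold and 4.28-fold lower (limma log2 difference -2.43 ± 0.27, SE, adjusted p = 0.000385, lower in 2 of 2). HLA-DMA stood at 4437 in Jeko-1/R and 4370 in Jeko-1, which is 3.45-fold and 2.48-fold lower. CD74 stood at 7404 in Jeko-1/R and 6875 in Jeko-1, which is 4.78-fold and 3.29-fold lower. HLA-DOB, at 352 in Jeko-1/R and 310 in Jeko-1, was 5.96-fold and 3.88-fold lower. HLA-DRB1 was 5.11-fold and 3.92-fold lower, log2 ratios of -2.35 and -1.97 that were -1.11 and -1.16 with quantile normalization. A probe set annotated to HLA-DRB1 and several other genes gave 23.9 in Jeko-1/R and 30.8 in Jeko-1, against 2625 in Raji/R and 2838 in Raji. Another, annotated to HLA-DRB4 and HLA-DRB1, gave 9649 in Jeko-1/R and 9823 in Jeko-1, against 59754 in Raji/R and 40443 in Raji. HLA-DRA and HLA-DPB1 were lower by 1.55 and 1.68 on the log2 scale between the sublines, but quantile normalization turned HLA-DRA to 0.073 there and HLA-DPB1 to 0.062 between the parents. HLA-DPA1 was 3.88-fold and 3.01-fold lower by its brightest probe set, and another gave log2 ratios of -2.08 and -1.56. A dimmer HLA-DPA1 probe set went the other way, with 1947 in Jeko-1/R and 1701 in Jeko-1, against 789 in Raji/R and 633 in Raji. CTSS was nearly equal in all lines, at 2378 in Jeko-1/R and 2496 in Jeko-1, beside 2320 in Raji/R and 2459 in Raji.

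**Figure D3:**
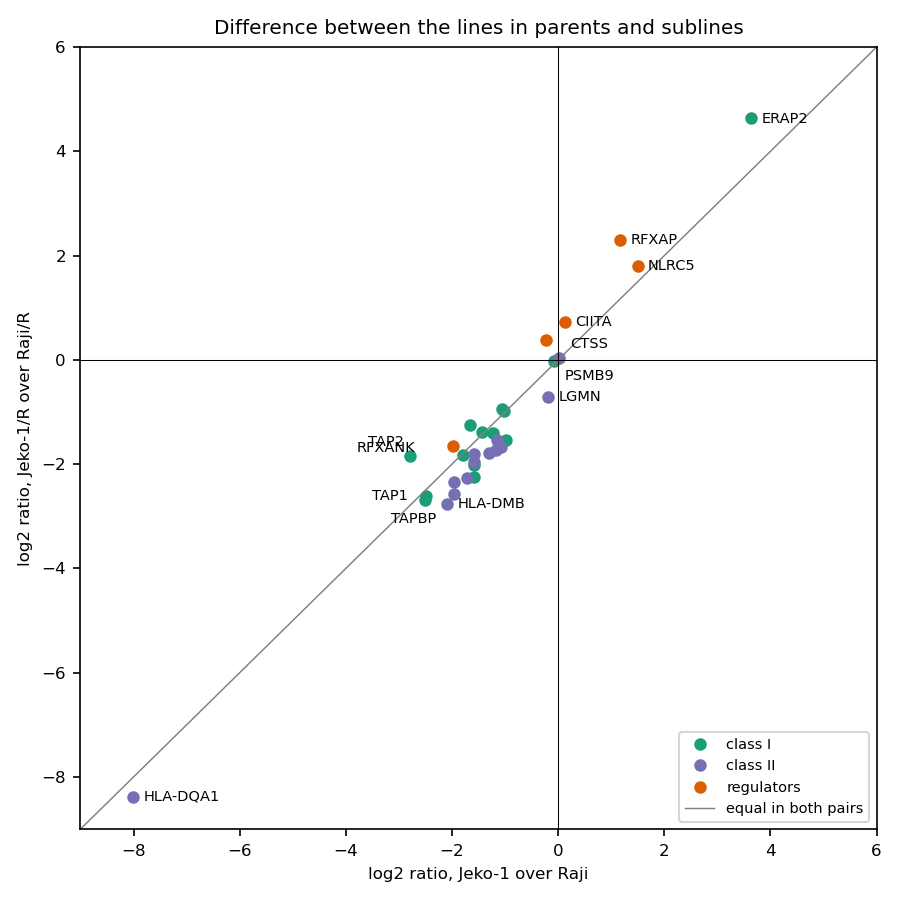
Log2 ratio of Jeko-1/R over Raji/R (vertical axis) against that of Jeko-1 over Raji (horizontal axis), 1 point per gene coloured by class, with the line of equal ratios. HLA-DQA1 lies lowest, at -8.38 and -8.01, and ERAP2 highest, at 4.63 and 3.64; HLA-B, HLA-C, B2M, HLA-DRA and HLA-DPB1, among the points below 0, cross 0 in at least 1 of the comparisons under quantile normalization.

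HLA-DQA1, the alpha chain of HLA-DQ, was the member furthest apart. It was below the floor in the Jeko-1 lines, with measured signals of 29.5 in Jeko-1/R and 22.3 in Jeko-1, against 25727 in Raji/R and 19941 in Raji, so that it was lower by at least 332-fold between the sublines and by at least 257-fold between the parents. Its second probe set gave 84.8 in Jeko-1/R and 41.8 in Jeko-1, against 24525 in Raji/R and 18651 in Raji, and the remaining one was below the floor in both Jeko-1 lines. A probe set annotated to both HLA-DQA1 and HLA-DQA2 gave a different picture, with 18651 in Jeko-1/R and 18126 in Jeko-1, against 29636 in Raji/R and 20893 in Raji.

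The probe sets of HLA-DQB1, the beta chain, were divided in the same way between the lines. The brightest gave 4232 in Jeko-1/R and 3755 in Jeko-1, against 14012 in Raji/R and 8489 in Raji. Another gave 30.1 in Jeko-1/R and 9.12 in Jeko-1, below the floor, against 6407 in Raji/R and 5576 in Raji. A further one gave 3657 in Jeko-1/R and 3107 in Jeko-1, against 3990 in Raji/R and 2530 in Raji. For this 1 gene the log2 ratio between the parents thus ran between -6.17, a bound set by the floor, and 0.30. HLA genes differ in sequence between people, and how each probe matches the alleles of each line was not tested. The differences between the lines for HLA-DQ and HLA-DRB1 are differences in probe signal.

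**Figure D4:**
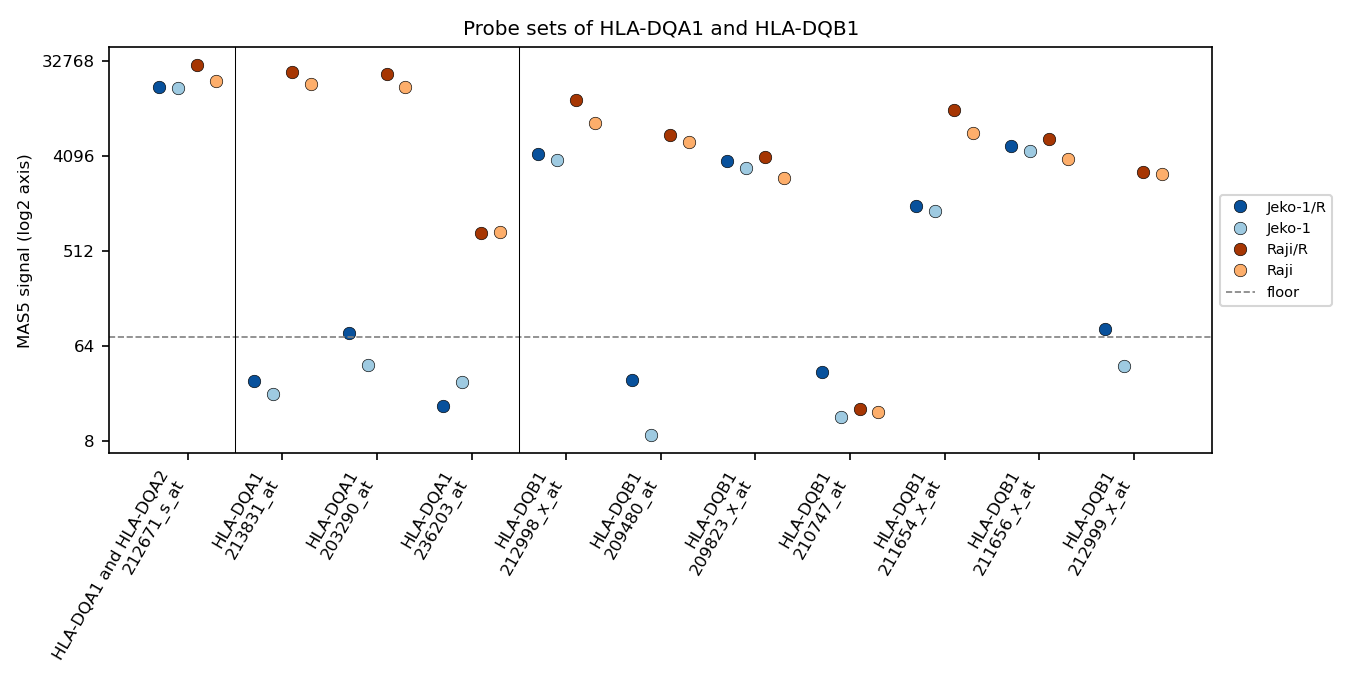
Signals of the HLA-DQA1 and HLA-DQB1 probe sets, and of the one annotated to both HLA-DQA1 and HLA-DQA2, in Jeko-1/R, Jeko-1, Raji/R and Raji (log axis, 1 point per array, floor of 77.5 marked). Some probe sets lie below the floor in the Jeko-1 lines and far above it in the Raji lines, whereas others, including that of both alpha-chain genes, are bright in all 4.

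Class I genes were lower in the Jeko-1 lines by a median log2 ratio of -1.47 between the sublines and -1.51 between the parents, which were -0.48 and -0.14 without probe sets marked x_at or s_at. The peptide transporter and tapasin were among the genes further apart by their brightest probe sets: TAPBP stood at 886 in Jeko-1/R and 869 in Jeko-1, against 5683 in Raji/R and 4967 in Raji, which is 6.41-fold and 5.71-fold lower. Its 2 dimmer probe sets gave log2 ratios of -0.90 and -0.14 between the sublines and of -0.73 and -0.09 between the parents. TAP1 stood at 1531 in Jeko-1/R and 1333 in Jeko-1 and was 6.08-fold and 5.61-fold lower. TAP2 was 3.60-fold and 6.95-fold lower. Its dimmer probe sets gave log2 ratios of -1.16 and -1.30 between the sublines and of -1.10, -1.59 and -0.25 between the parents. Of these, -1.30, -1.59 and -0.25 are bounds set by the floor. PSMB8 stood at 3242 in Jeko-1/R and 3059 in Jeko-1, against 11463 in Raji/R and 10604 in Raji, while PSMB9, its immunoproteasome partner subunit, had 3812 in Jeko-1/R and 3271 in Jeko-1, against 3892 in Raji/R and 3436 in Raji. PSMB9 was 1 of 2 class I or class II genes with log2 ratios within 0.1 of 0 in both comparisons of the lines, and CTSS was the other.

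Among the class I molecules themselves the line difference varied in size and, for HLA-B, HLA-C and B2M, its direction depended on the scaling. HLA-B was 1.97-fold lower in Jeko-1/R and 2.03-fold lower in Jeko-1, HLA-C 2.65-fold and 2.35-fold lower, and B2M 2.90-fold and 1.98-fold lower. In the limma fit, quantile normalization gave 0.23 for HLA-B and 0.13 for B2M and lowess adjustment gave 0.083 and 0.076, against -1.001 and -1.26 as deposited. HLA-C stood at 0.031 between the sublines after quantile normalization. A dimmer B2M probe set gave the opposite difference, with 1585 in Jeko-1/R and 1331 in Jeko-1, against 198 in Raji/R and 92.3 in Raji. HLA-E was 4.77-fold and 3.01-fold lower, from 5335 in Jeko-1/R and 5391 in Jeko-1. Its other probe sets gave log2 ratios of -1.59 and -0.28 between the sublines and -1.29 and -0.42 between the parents. For the surface molecules of class I, direction thus held for HLA-E and not for HLA-B and B2M, nor for HLA-C between the sublines, after quantile normalization.

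ERAP2 and ERAP1, the trimming peptidases, differed in opposite directions. ERAP2 had 1918 in Jeko-1/R and 1859 in Jeko-1, against 68.6 in Raji/R and 149 in Raji, higher by at least 24.8-fold between the sublines and by 12.4-fold between the parents. Its other probe sets above the floor, all below it in the Raji lines, were also higher in the Jeko-1 lines, by log2 ratios of at least 2.88 to 3.98. ERAP1 had 2169 in Jeko-1/R and 2200 in Jeko-1, against 5654 in Raji/R and 5936 in Raji, but another ERAP1 probe set gave 1306 in Jeko-1/R and 1186 in Jeko-1, against 70.7 in Raji/R and 197 in Raji. The direction for ERAP1 thus differs between its probe sets.

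The regulators did not share 1 direction in this comparison. NLRC5 had 3641 in Jeko-1/R and 2801 in Jeko-1, against 1045 in Raji/R and 992 in Raji, 3.49-fold and 2.82-fold higher (limma log2 difference 1.65 ± 0.25, SE, adjusted p = 0.0014, higher in 2 of 2). RFXAP had 3411 in Jeko-1/R and 3121 in Jeko-1, 4.90-fold and 2.24-fold higher, although its dimmer probe set gave -0.61 between the sublines and 0.93 between the parents. RFXANK, the ankyrin-repeat subunit, had 655 in Jeko-1/R and 633 in Jeko-1, 3.14-fold and 3.95-fold lower. CIITA had 1832 in Jeko-1/R and 1610 in Jeko-1, and its log2 difference of 0.42 in the limma fit did not pass (adjusted p = 0.23). RFX5 did not pass either, at 0.07 (adjusted p = 0.84).

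**Figure D5:**
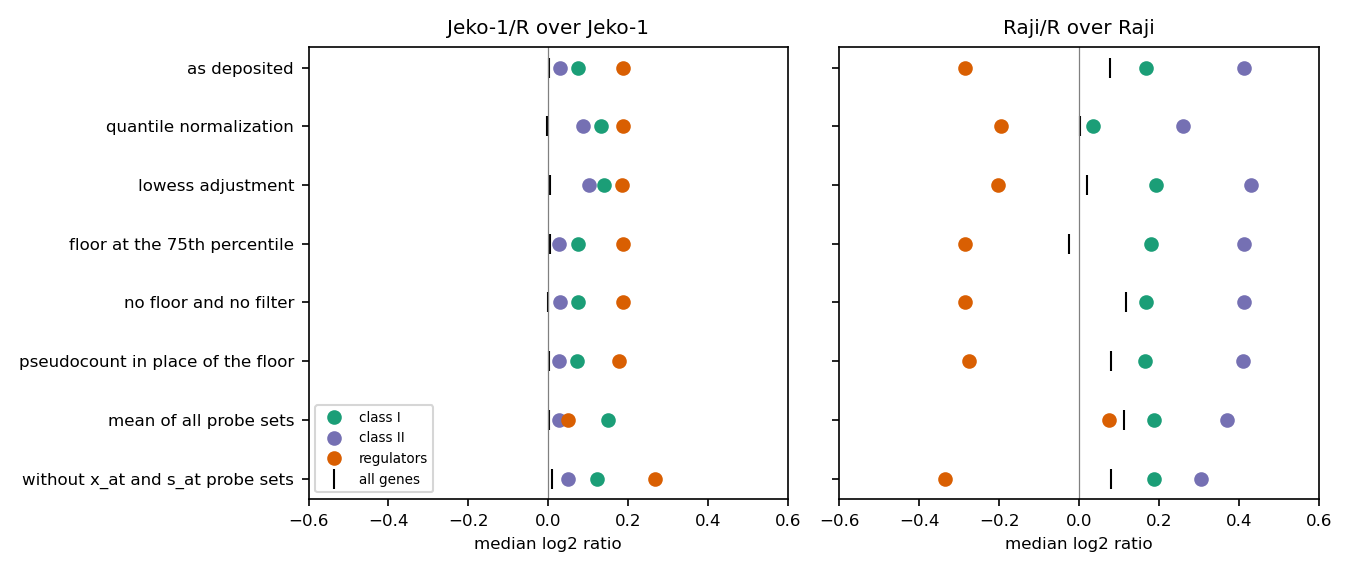
Median log2 ratio (horizontal axis) of class I genes, class II genes, regulators and, as ticks, all genes in the resistant over parental comparisons under the deposited scaling and 7 alternative settings. In the Raji pair the class II median stays between 0.26 and 0.43 and the regulators' median between -0.34 and 0.08; in the Jeko-1 pair the medians of the 3 classes lie between 0.03 and 0.27.

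Other genes of the routes were given by lists of 26 class I and 40 class II genes, with values for 23 and 38. In Jeko-1/R none of either list differed by 2-fold from Jeko-1. In Raji/R, 1 class I gene, of 22 with a ratio, TAPBPL, which edits class I peptides, was 2-fold higher, at 360 in Raji/R and 176 in Raji. Of the class II list, 2 of the 34 with a ratio were higher and 2 lower, beside 7.01% and 2.64% of all genes: the lysosomal protease CTSD stood at 384 in Raji/R and 153 in Raji, and CTSL, another, at 182 in Raji/R and 7.27, below the floor, in Raji. The chromatin repressor EZH2 stood at 1212 in Raji/R and 2519 in Raji, and the adaptor subunit AP2A1 had a log2 ratio of -1.01, with other probe sets between -0.78 and 0.48.

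Between the lines, the limma fit called 4 higher and 8 lower of 23 other class I genes, and 11 higher and 15 lower of 37 other class II genes, in the Jeko-1 lines, beside 23.3% higher and 30.1% lower of all genes. Among the lower ones were IRF1, the interferon-regulated activator of class I genes, with 913 in Jeko-1/R and 893 in Jeko-1, against 3543 in Raji/R and 3832 in Raji, and PSME1, a proteasome activator subunit, with 7527 in Jeko-1/R and 8596 in Jeko-1, against 34408 in Raji/R and 26086 in Raji. The T-cell costimulator CD80 had 130 in Jeko-1/R and 172 in Jeko-1, against 2662 in Raji/R and 2276 in Raji. By their brightest probe sets, factors of the class II promoter were divided. The Y box subunit NFYB had 2644 in Jeko-1/R and 2895 in Jeko-1, against 320 in Raji/R and 179 in Raji. CREB1 had 6956 in Jeko-1/R and 6634 in Jeko-1, against 185 in Raji/R and 288 in Raji. Its other probe sets gave log2 ratios from 0.38 to 4.37 between the sublines and from 0.58 to 4.56 between the parents. NFYC, another Y box subunit, was lower, with 503 in Jeko-1/R and 528 in Jeko-1, against 2466 in Raji/R and 3360 in Raji. Other NFYC probe sets ran from -2.20 to 0.63 between the sublines and from -2.35 to 0.23 between the parents. The direction for NFYC thus depends on the probe set. The endosomal protease CTSB was higher in the Jeko-1 lines, at 2169 in Jeko-1/R and 2295 in Jeko-1, against 51.6 in Raji/R and 45.7 in Raji, both below the floor.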

How the data were processed

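Trizol was used to extract total RNA from the 4 cultures, and 6 µg of it went into biotinylated cRNA, per the labels' protocols. MAS5 produced the signals, per the submitters' processing notes; which version was not given in the sources used here. As deposited by the authors, the files hold log2 values for 54613 probe sets per array; the base was read from the values, since a trimmed mean signal of 493 to 497 on all arrays is what MAS5 scaling to 1 target gives. MAS5 applies 1 factor per array, so signal-dependent differences between arrays remain. The platform annotation gave 1 gene symbol to 41091 probe sets, several to 1801 and none to 11721. Gene IDs of 41037 matched the RefSeq table (GRCh38.p14).

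The 33 genes and all other lists were chosen with earlier results of these data known. All members were to be named, and from the other lists those 2-fold changed in a pair or called by limma, of which examples are given. The members had 85 single-symbol probe sets, with several for 23 genes, and 16 gene values came from x_at or s_at probe sets, whose probes can match more than 1 transcript. Within a line, a ratio was taken where 1 or both arrays of the pair reached the floor. The limma 3.58.1 (R 4.3.3) fit had cell line and resistance as terms; pairing comes from the cell lines, as each subline was derived from its parent. Empirical Bayes moderation used a prior SD of 0.263 and 5.89 prior degrees of freedom, and the tests were two-sided. Nothing in the labels describes separate cultures. The 7 alternatives were quantile normalization, lowess adjustment (fraction 0.3), a floor at the 75th percentile (signal 367), no floor, a pseudocount, the mean of all probe sets, and leaving out x_at and s_at probe sets. The limma fit was also run on simulated data, in which a difference for resistance was added to 200 bright genes. No line difference was added, and the outcome is not reported here. The tables were made in Python 3.11.15 with pandas 2.3.3, numpy 2.4.6, statsmodels 0.14.6 and scipy 1.17.1, and drawn with matplotlib 3.10.9.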

Additional observations from a re-analysis of the deposited data

Results flagged for a closer look

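A probe set annotated to both HLA-DQA2 and HLA-DQA1, which enters no gene value, had a signal of 18651 in Jeko-1/R and 18126 in Jeko-1, lines in which the brightest HLA-DQA1 probe set was below the floor of 77.5. It had 29636 in Raji/R and 20893 in Raji. Which of both genes its probes read in each line was not tested.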

How the results depend on the processing

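In the Raji pair, averaging all probe sets gave 2 members at least 2-fold higher and 0 lower, leaving out x_at and s_at probe sets gave 1 and 2, having no floor gave 2 lower and a pseudocount gave 0 lower, against 0 and 1. RFXAP turned to 1.04 with averaged probe sets. Leaving out x_at and s_at probe sets leaves 25 members with a value in the limma fit; it moved the class I medians to -0.48 between the sublines and -0.14 between the parents (against -1.47 and -1.51), and gave 5 members higher and 12 lower in Jeko-1/R than in Raji/R (against 3 and 22), 6 and 12 in Jeko-1 than in Raji (against 3 and 23), and 6 and 12 called in the limma fit of the lines (against 3 and 24). Lowess adjustment gave 13 members lower in Jeko-1 than in Raji. Without a floor, limma called 0 higher and 0 lower between the lines, and 25 members had an unadjusted p under 0.05. The following turned sign in the Jeko-1 over Raji comparisons. Between the sublines these were HLA-B (0.396), HLA-C (0.031), B2M (0.15) and HLA-DRA (0.073) with quantile normalization, HLA-B (0.205) with lowess, B2M (0.065) and ERAP1 (0.64) with averaged probe sets, and HLA-F (0.73), B2M (3.001) and ERAP1 (4.07) without x_at and s_at. Between the parents these were HLA-B (0.055), B2M (0.12) and HLA-DPB1 (0.062) with quantile normalization, B2M with lowess (0.21) and averaged probe sets (0.63), and HLA-F (1.53), B2M (3.85) and ERAP1 (2.59) without x_at and s_at. PSMB9, CTSS, LGMN, CIITA and RFX5, with log2 ratios within 1 SD between probe sets, also crossed 0 in part of these settings. In the limma fit these were HLA-B (0.23), B2M (0.13), HLA-DRA (0.027) and HLA-DPB1 (0.0029) with quantile normalization, HLA-B (0.083) and B2M (0.076) with lowess, B2M (0.35) and ERAP1 (0.071) with averaged probe sets, and HLA-F (1.13), B2M (3.43) and ERAP1 (3.33) without x_at and s_at. The choice of probe set is the difference by construction where probe sets are averaged or left out; otherwise the cause was not tested. Without the replicate block, that is without pairing by cell line or resistance, 0 members were called for resistance, and 3 higher and 24 lower between the lines. Leaving out a line or a state leaves no residual degrees of freedom, so it gives only the ratios of the remaining arrays reported above. Values near the floor, and 1 array per group, limit the precision.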
